A study of Mus musculus with 20 samples.

Results

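Gene expression in the hippocampus late after conditioned fear (CF) training was compared with expression early after it, on 8 of the 20 arrays of the series. The late arrays were the 4 hippocampal arrays at 48hr and 1wk, and the early arrays were the 4 hippocampal arrays at 0hr and 1hr, with 1 WT and 1 DKO array at each time point. Members were chosen by the region and time point in the sample labels, and the baseline arrays were not used. All mice were male C57BL/6 mice of 2 months that had received 1 shock of 0.7 mA for 2 sec in a CF training trial of 5 min. DKO mice lack AC1 and AC8, the adenylyl cyclases that calcium stimulates, and in the study as a whole such mice could also carry a tetop-AC8 or a CaMKII-tTA transgene, each without its partner, and came from matings kept on doxycycline. The WT mice came from separate C57BL/6 litters. The 1wk mice had also gone through a testing trial of 5 min before they were killed, so the late group holds 1 time point with a recent re-exposure and 1 without. Each array held RNA pooled from punches of 5 to 10 mice. Because there was 1 array per genotype and time point, the 2 time points of each group stand as replicates, and the spread between them includes any difference between 0hr and 1hr or between 48hr and 1wk.

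Fear conditioning is followed in the hippocampus by waves of transcription. Neuronal activity and cyclic AMP turn on immediate early genes within minutes to an hour, among them Fos, Egr1 and Arc, whose mRNAs are short-lived. The stress of the shock also raises circulating glucocorticoids, which enter the brain, bind the glucocorticoid receptor and act on genes such as Sgk1, Fkbp5 and the metallothioneins. Both responses are transient, whereas a memory kept for days is thought to rest on later, smaller changes.

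Values are log2 RMA values, so that a difference of 1 is a doubling, and every difference is given as late minus early. A transcript cluster is a set of probes that reads 1 gene or a stretch of it, and 28853 of them were measured. The median of all transcript clusters lay between 6.64 on the DKO 48hr array and 6.81, and the correlation between any pair of the 8 arrays was at least 0.9918. Markers of hippocampal neurons were checked first against the labelled region. Averaged over the 17 measured genes of that list, the level ranged from 7.81 to 8.04 on the 8 hippocampal arrays and from 7.16 to 7.54 on the amygdala arrays of the same time points. Neurod6, a transcription factor of forebrain excitatory neurons, lay between 9.68 and 10.23 in the hippocampus and between 8.001 and 9.01 in the amygdala, but Spink8, a marker of CA1 neurons, overlapped between the regions, at 9.32 to 10.12 against 8.60 to 9.58. The mean of the dentate gyrus list was 8.44 to 8.69 against 7.40 to 7.77, and that of the CA3 and CA2 list 7.93 to 8.21 against 7.57 to 7.81. The CA1 list overlapped, at 7.13 to 7.73 against 7.22 to 7.65. C1ql3, on the dentate gyrus list, was higher in the amygdala, at 10.3236 to 10.8696 against 9.946 to 10.3201 in the hippocampus. One array stood apart, that of DKO at 1hr, which had far lower choroid plexus markers than the other early arrays, and values without it are given beside the results that it moved most.

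The targeted genes separated the genotypes on every array. Adcy1, which encodes AC1, was 9.32, 9.53, 9.23 and 9.32 on the WT arrays at 0hr, 1hr, 48hr and 1wk and 7.67, 7.80, 7.73 and 7.68 on the DKO arrays. Adcy8, which encodes AC8, was 7.48, 7.14, 7.52 and 7.66 in WT and 5.37, 5.22, 5.25 and 5.79 in DKO. Neither passed the limma test between late and early, at -0.09 ± 0.07 (SE) for Adcy1 and 0.25 ± 0.11 for Adcy8, both with an adjusted p of 1.

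No gene passed the test between late and early. With genotype as a covariate, limma called 0 of 28853 transcript clusters at an adjusted p of 0.05 (0%), and the lowest adjusted p was 0.966. At an unadjusted p under 0.05 there were 899 transcript clusters, 301 higher and 598 lower late (3.12% in all, fewer than the 5% that this limit passes on average when no gene differs). Leaving out 1 array gave from 659 to 1657 such transcript clusters, the most without the WT 1hr array, with 337 higher and 1320 lower. The ordinary linear model and the test named in the study's methods, run without genotype at a limit of 0.1, also called 0. The typical standard error of a difference was 0.079, and the median difference over all transcript clusters was -0.014, with 0.014 in WT and -0.043 in DKO. Centring each array on its own median turned the 899 into 958, of which 555 were higher and 403 lower, and a further quantile normalization gave 1171, of which 564 were higher and 607 lower, so the excess of lower values depended on the scaling. As a description without a test, the 4 late arrays all lay below the 4 early arrays for 291 transcript clusters (1.01%) and all above them for 213 (0.738%).

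Genes on the glucocorticoid list were lower late than early in both genotypes without passing the test. Of 28 measured genes on the list of the glucocorticoid receptor and its targets, 27 had a difference below 0. Over all 19938 genes with a symbol of their own, 11779 did. The list median was -0.15, beside -0.02 over all these genes. None of the 28 passed in either direction. For 8 of the 28 (28.6%) the 4 late arrays all lay below the 4 early arrays, beside 1.01% of all transcript clusters, and for 0 they all lay above. These 8 were Txnip, Sgk1, Nfkbia, Klf9, Mt2, Sult1a1, Dusp1 and Mt1. The list median was -0.06 in WT and -0.20 in DKO. It was -0.13 after centring and -0.14 after a further quantile normalization. It was -0.09 without the DKO 1hr array and -0.09 without the DKO 48hr array. Leaving out an array cannot undo a full separation, so the 8 genes had to remain separated and say nothing on stability. No further gene of the list separated the groups with either of these arrays left out. The share of all transcript clusters was then 1.97% without the first and 1.3% without the second. After centring 4 of the 28 (14.3%) separated the groups, beside 0.724% of all transcript clusters, namely Txnip, Nfkbia, Klf9 and Dusp1. The baseline arrays were not used, so these values do not show whether the genes rose after training. With 0hr alone as early, the difference was -0.289 for Nfkbia, -0.395 for Txnip and -0.227 for Sgk1. With 1hr alone as early it was -0.297, -0.538 and -0.498. The cause of the differences was not tested.

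Txnip, an inhibitor of thioredoxin that glucose and glucocorticoids induce, was 7.53 and 7.79 in WT and 7.53 and 7.55 in DKO at 0hr and 1hr. At 48hr and 1wk it was 7.19 and 7.02 in WT and 7.15 and 7.18 in DKO. All late values were below all early values, with means of 7.60 ± 0.13 (SD, n = 4) early and 7.13 ± 0.08 late. The difference was -0.47 ± 0.08 (SE; limma, adjusted p = 0.966), with -0.55 in WT and -0.38 in DKO.

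Sgk1, a kinase that acts on ion channels and a direct target of the receptor, was 7.75 and 8.30 in WT and 7.95 and 7.94 in DKO at the early time points. Late it was 7.61 and 7.63 in WT and 7.55 and 7.69 in DKO. The WT 1hr array held the highest value, and the closest values across the groups were those of WT at 0hr and DKO at 1wk. The difference was -0.36 ± 0.10 (SE; limma, adjusted p = 1), with -0.40 in WT and -0.32 in DKO.

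Nfkbia, which encodes the inhibitor that holds NF-kappaB in the cytoplasm, had the narrowest spread of the 8. It was 7.62 and 7.62 in WT and 7.56 and 7.57 in DKO early, and 7.36 and 7.30 in WT and 7.24 and 7.30 in DKO late. The change was nearly equal in the genotypes, at -0.29 in WT and -0.30 in DKO (overall -0.29 ± 0.06, SE; limma, adjusted p = 0.966). Klf9, a Kruppel-like factor that corticosterone induces in neurons, was 7.94 and 7.94 in WT and 7.91 and 8.06 in DKO early. Late it was 7.74 and 7.56 in WT and 7.73 and 7.82 in DKO. It differed by -0.25 ± 0.07.

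The remaining 4 genes had smaller differences. Mt2 and Mt1 encode metallothioneins, which bind zinc. Mt2 was between 11.11 and 11.27 early and between 10.81 and 11.11 late, and Mt1 was between 10.64 and 10.86 early and between 10.47 and 10.62 late. For both, the closest early and late values nearly touched. Sult1a1, a sulfotransferase, was between 7.47 and 7.61 early and between 7.31 and 7.46 late. Dusp1, a phosphatase that switches off MAP kinases and that both glucocorticoids and cyclic AMP induce, was between 6.95 and 7.07 early and between 6.71 and 6.94 late. Its WT 1hr value of 6.95 and WT 48hr value of 6.94 lay side by side.

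**Figure D1:**
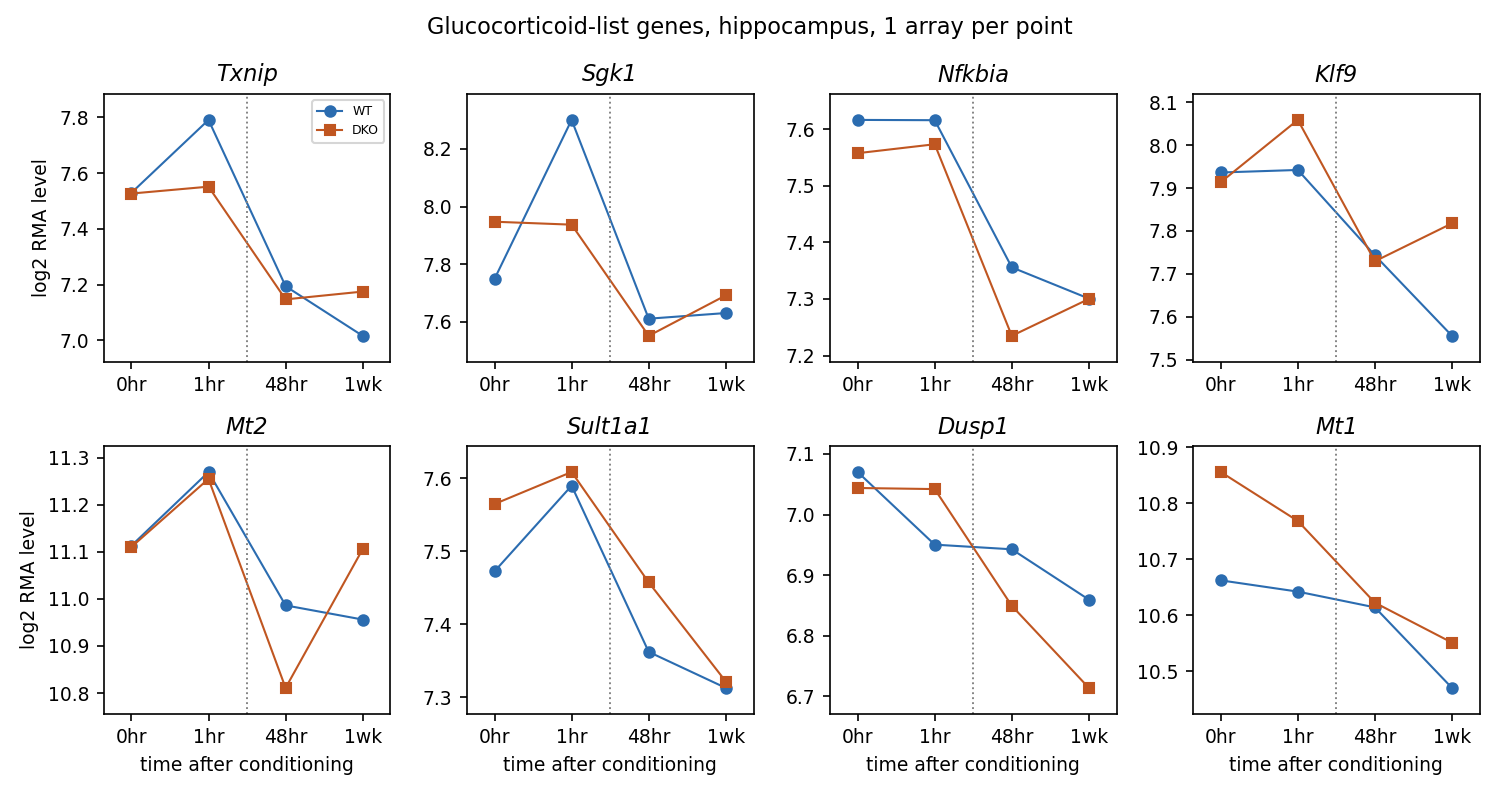
The 8 genes of the glucocorticoid list whose late arrays all lay below their early arrays, with the log2 RMA level on the y axis and the time after conditioning on the x axis. Each point is 1 array, blue circles are WT, orange squares are DKO, and the dotted line separates early from late. Nfkbia had a high early pair and a low late pair in each genotype, and Sgk1 was highest on the WT 1hr array at 8.30.

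The other genes of the list overlapped between late and early arrays. Fkbp5, a co-chaperone of the receptor, was 7.27, 7.56, 7.23 and 7.33 early (WT 0hr, WT 1hr, DKO 0hr, DKO 1hr) and 7.25, 7.12, 6.60 and 7.31 late (WT 48hr, WT 1wk, DKO 48hr, DKO 1wk). The low DKO 48hr value carried much of its difference of -0.28 ± 0.13, and without that array the difference was -0.12. Tsc22d3, which encodes the leucine zipper protein GILZ, differed by -0.12 ± 0.08, which was -0.04 without the DKO 1hr array, and Per1, a clock gene that glucocorticoids also induce, by -0.09 ± 0.09, a value that turned to 0.0053 without the DKO 48hr array. Nr3c1, which encodes the receptor itself, differed by 0.12 ± 0.10 and was the 1 gene of the list above 0. Nr3c2, the mineralocorticoid receptor, differed by -0.03 ± 0.08.

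Promoters of the 8 genes were searched for the palindrome bound by the glucocorticoid receptor, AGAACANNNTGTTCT, and for the cyclic AMP response element, TGACGTCA. Both motifs read the same on both strands. The search covered 300 bases around each annotated start, 250 before it and 50 after, in RefSeq sequence of build GRCm38.p6. Of 32851 promoters of all genes, 3 (0.00913%) held the first motif and 588 (1.79%) held the second. Of the 8 genes, the first was found at 1 of the 6 starts of Sgk1, 189 bases before that start, and the second at the single start of Dusp1, 143 bases before it. The 250 bases before each of these 2 starts are given because they hold the motif, in capitals, on the strand of the gene, for Sgk1 from chr10:21993640-21993889 (plus strand) and for Dusp1 from chr17:26508473-26508722 (minus strand).
Sgk1: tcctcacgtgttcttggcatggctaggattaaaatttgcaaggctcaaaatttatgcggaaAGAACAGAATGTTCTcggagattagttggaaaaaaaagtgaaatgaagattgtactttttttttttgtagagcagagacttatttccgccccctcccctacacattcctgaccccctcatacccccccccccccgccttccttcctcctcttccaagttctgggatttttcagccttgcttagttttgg
Dusp1: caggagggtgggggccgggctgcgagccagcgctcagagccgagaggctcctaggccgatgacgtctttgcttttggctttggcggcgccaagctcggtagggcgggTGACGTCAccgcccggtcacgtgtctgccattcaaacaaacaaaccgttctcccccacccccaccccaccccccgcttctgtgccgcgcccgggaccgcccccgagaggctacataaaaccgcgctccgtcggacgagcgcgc
The end of the palindrome, TGTTCT, was also searched and lay in 6233 of the 32851 promoters (19%). Among the genes searched it was found at starts of Sgk1 and Sult1a1 only. The array does not tell which start of Sgk1 was in use. A match is a description of the sequence and not of binding.

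Markers of the choroid plexus, the epithelium in the ventricles that makes cerebrospinal fluid, differed most of all lists. All 15 measured genes had a difference below 0, beside 11779 of all 19938 genes with a symbol of their own. The list median was -0.53 (-0.66 in WT, -0.45 in DKO), and none of the 15 passed the test. The list mean was 7.83, 8.11 and 8.06 on the WT 0hr, WT 1hr and DKO 0hr arrays, and 6.97 on the DKO 1hr array. Late it was 7.20 and 7.02 in WT and 7.005 and 6.89 in DKO. So 3 of the 4 early arrays were high, and the DKO 1hr array lay among the late ones. For 1 of the 15 genes, Clic6, the late arrays all lay below the early arrays (6.67%, beside 1.01% of all transcript clusters). Without the DKO 1hr array this held for 14 of the 15, beside 1.97% of all transcript clusters.

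Ttr, which encodes transthyretin, the thyroid hormone carrier made by this epithelium, showed the widest range. It was 12.94 and 13.39 in WT and 13.33 and 10.25 in DKO early, and 11.73 and 10.46 in WT and 11.01 and 10.12 in DKO late. The DKO 1hr value was lower than every late value except that of DKO at 1wk. The difference was -1.65 ± 0.53 (SE; limma, adjusted p = 1). Clic6, a chloride channel protein, was 6.76 and 7.28 in WT and 7.26 and 5.72 in DKO early, and 5.66 and 5.14 in WT and 5.46 and 5.48 in DKO late. It differed by -1.32 ± 0.27 (adjusted p = 0.966), with -1.62 in WT and -1.02 in DKO. Ecrg4, Calml4, Kcne2, a potassium channel subunit, and Kl, which encodes Klotho, differed by -1.33, -1.08, -1.02 and -0.72, and each was low on the DKO 1hr array.

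Leaving out the DKO 1hr array was the one omission of an array that gave calls between late and early. There were then 14 calls, 13 lower and 1 higher late, of which 11 have a symbol and 7 are on the choroid plexus list. These 11 were Ecrg4, Clic6, Sostdc1, Kcne2, Kl, Calml4 and Ttr of the list, and Htr2c, Drc7, Cldn1 and Sulf1. Ecrg4 differed by -1.90 ± 0.13 (SE; limma, adjusted p = 0.000612) and Ttr by -2.35 ± 0.30 (adjusted p = 0.0199). Htr2c, the serotonin receptor that the choroid plexus expresses strongly, differed by -0.77 ± 0.09 (adjusted p = 0.0113). The array left out is the one singled out for its low choroid plexus markers. The p-values without it are therefore no independent support for a late change of plexus genes. With 0hr alone as early, which also leaves out this array, 6 transcript clusters were called, all lower late. The 4 with a symbol were Ecrg4, Clic6, Sostdc1 and Kcne2. Punches of hippocampus can include the plexus of the lateral ventricle, and more plexus tissue in a punch and more RNA per plexus cell cannot be told apart here.

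**Figure D2:**
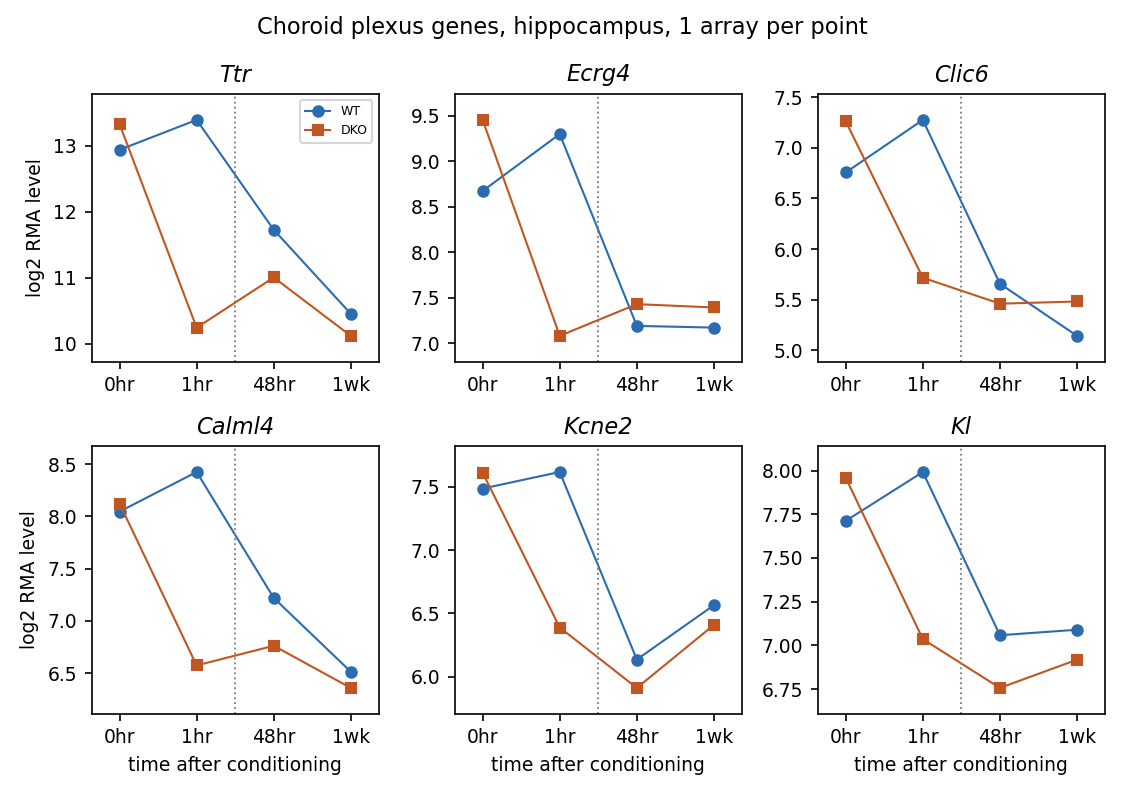
Levels of 6 choroid plexus genes on the 8 hippocampal arrays, log2 RMA level on the y axis and time after conditioning on the x axis, 1 array per point. For each gene the WT 0hr, WT 1hr and DKO 0hr arrays stood high, and the DKO 1hr array (Ttr 10.25) stood with or near the late arrays.

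With the mean of the choroid plexus list as a further covariate, 0 transcript clusters were called. That mean was 6.97 on the DKO 1hr array, 6.89 to 7.20 on the late arrays and higher on the other early arrays. The covariate thus nearly repeated the grouping, and the differences fitted with it leaned largely on the DKO 1hr array. They cannot tell how much of a change goes with the plexus. Clic6 then differed by -0.24 ± 0.13, Drc7 by -0.20 ± 0.11 and Ttr by 0.43 ± 0.26. Clic6 and Ttr are themselves part of the covariate. Among the glucocorticoid genes the difference was then -0.40 ± 0.13 for Txnip, -0.30 ± 0.10 for Nfkbia, -0.31 ± 0.12 for Klf9, -0.27 ± 0.17 for Sgk1 and -0.33 for Tsc22d3, and the median of that list was -0.20. The differences of Egr2 and Egr1, described with the immediate early genes, were -1.42 and -0.53.

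Among the genes with the lowest p that were lower late, several are known from ventricle linings and meninges. Drc7 and Spef2, which belong to motile cilia, were between 6.02 and 6.62 and between 4.75 and 5.21 early, and between 5.82 and 5.86 and between 4.37 and 4.54 late. They differed by -0.56 ± 0.11 and -0.47 ± 0.10. Igf2, a growth factor made by meninges and choroid plexus, was 7.82 and 7.48 in WT and 7.83 and 7.54 in DKO early, and 7.32 and 7.23 in WT and 7.15 and 7.21 in DKO late. All 3 separated late from early, as did 1.01% of all transcript clusters with late below early, and none passed the test (adjusted p = 0.966). Of the ependymal list 0 of 12 genes and of the meningeal list 1 of 14, Igf2, separated in this way. Over all 19938 genes with a symbol of their own, 11779 were below 0. Of the 12 measured ependymal markers 11 were below 0, with a median of -0.14. Their list mean was 6.50 to 6.91 early and 6.47 to 6.74 late. Of 14 meningeal fibroblast markers 12 were below 0, with a median of -0.11 and a list mean of 6.89 to 7.25 early and 6.94 to 7.01 late. The part of these tissues in the differences was not tested. With the covariate, Igf2 differed by -0.35 ± 0.15 and Spef2 by -0.32 ± 0.15.

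The other genes with the lowest p and a lower late level belong to no list. Tcim, a regulator of Wnt signalling, was 6.06 and 6.14 in WT and 6.20 and 6.27 in DKO early, and 5.47 and 5.59 in WT and 6.00 and 5.79 in DKO late. Its difference was -0.46 ± 0.08 (adjusted p = 0.966), with -0.57 in WT and -0.34 in DKO, and it was -0.45 with the choroid plexus covariate. Sgms2, a sphingomyelin synthase, differed by -0.42 ± 0.09, Vpreb1, a part of the pre-B cell receptor, by -0.45 ± 0.09 and Iigp1, an interferon-induced GTPase, by -0.32 ± 0.07. With the choroid plexus covariate the difference was -0.18 for Sgms2, -0.51 for Vpreb1 and -0.40 for Iigp1. Vpreb1 overlapped between the groups and differed by -0.26 in WT and -0.64 in DKO.

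None of the genes that were higher late passed the test. Cdh18, a cadherin of neurons, was 7.22 and 7.18 in WT and 7.17 and 7.34 in DKO early, and 7.53 and 7.48 in WT and 7.51 and 7.61 in DKO late. It separated late from early and differed by 0.30 in WT and 0.31 in DKO. Zfp941, a zinc finger gene, was 7.61 and 7.22 in WT and 7.63 and 7.59 in DKO early, and 7.91 and 7.70 in WT and 8.04 and 7.97 in DKO late. Its difference was 0.39 in both genotypes. Kcnj16, an inwardly rectifying potassium channel, differed by 0.30 ± 0.07, and Lin28b, which blocks let-7 maturation, by 0.29 ± 0.07. Unc13c, which primes synaptic vesicles, had both its transcript clusters higher late, by 0.37 ± 0.08 and 0.56 ± 0.14, and late and early overlapped for both. Cenpq, a centromere protein, differed by 0.35 ± 0.07, and the transcripts B130024G19Rik and Hoxd3os1 by 0.44 ± 0.10 and 0.25 ± 0.06. Arhgap6 differed by 0.297 (limma, adjusted p = 0.966).

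Immediate early genes as a group had small differences between late and early. Of 28 measured transcription factors of this kind, 24 were below 0, beside 11779 of all 19938 genes with a symbol of their own. The list median was -0.09, none of the 28 passed the test, and for none did late and early arrays separate. Egr2, a zinc finger factor of the Egr family, had the largest difference of the list. It was 7.14 and 7.54 in WT and 6.58 and 7.79 in DKO at 0hr and 1hr, and 6.73 and 7.08 in WT and 6.28 and 6.18 in DKO at 48hr and 1wk. Both genotypes peaked at 1hr, and the DKO 0hr value lay within the late range. The difference was -0.70 ± 0.22 (SE; limma, adjusted p = 1), with -0.43 in WT and -0.96 in DKO, and it was -0.40 without the DKO 1hr array.

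Egr1 was 7.94 and 7.96 in WT and 7.77 and 8.15 in DKO early, and 7.85 and 7.93 in WT and 7.43 and 7.64 in DKO late. It was nearly level in WT (-0.06) and lower late in DKO (-0.43), and its overall difference of -0.24 was -0.13 without the DKO 1hr array. Arc, whose protein acts at synapses, was 8.11 and 8.15 in WT and 7.64 and 7.96 in DKO early, and 7.67 and 7.98 in WT and 7.58 and 7.66 in DKO late. Fos was 6.76 and 6.66 in WT and 6.53 and 6.62 in DKO early, and 6.43 and 6.79 in WT and 6.40 and 6.27 in DKO late. In WT the 1wk value of Fos was the highest of the 4, while in DKO it was the lowest. For Arc and Egr1 the 1wk value lay above the 48hr value in both genotypes. The 1wk arrays are those of mice tested shortly before killing, but single arrays allow no test of 1wk against 48hr within a genotype. Arc differed by -0.24 ± 0.09, Fos by -0.17 ± 0.09, Npas4 by 0.04 ± 0.08, Nr4a1 by -0.03 ± 0.10 and Junb by -0.01 ± 0.09, and the sign of the last 3 changed with the arrays used, that of Junb also with the scaling. Among 33 activity-induced effector genes the median was -0.04, and Ptgs2, which encodes cyclooxygenase-2, differed by -0.24 ± 0.11.

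**Figure D3:**
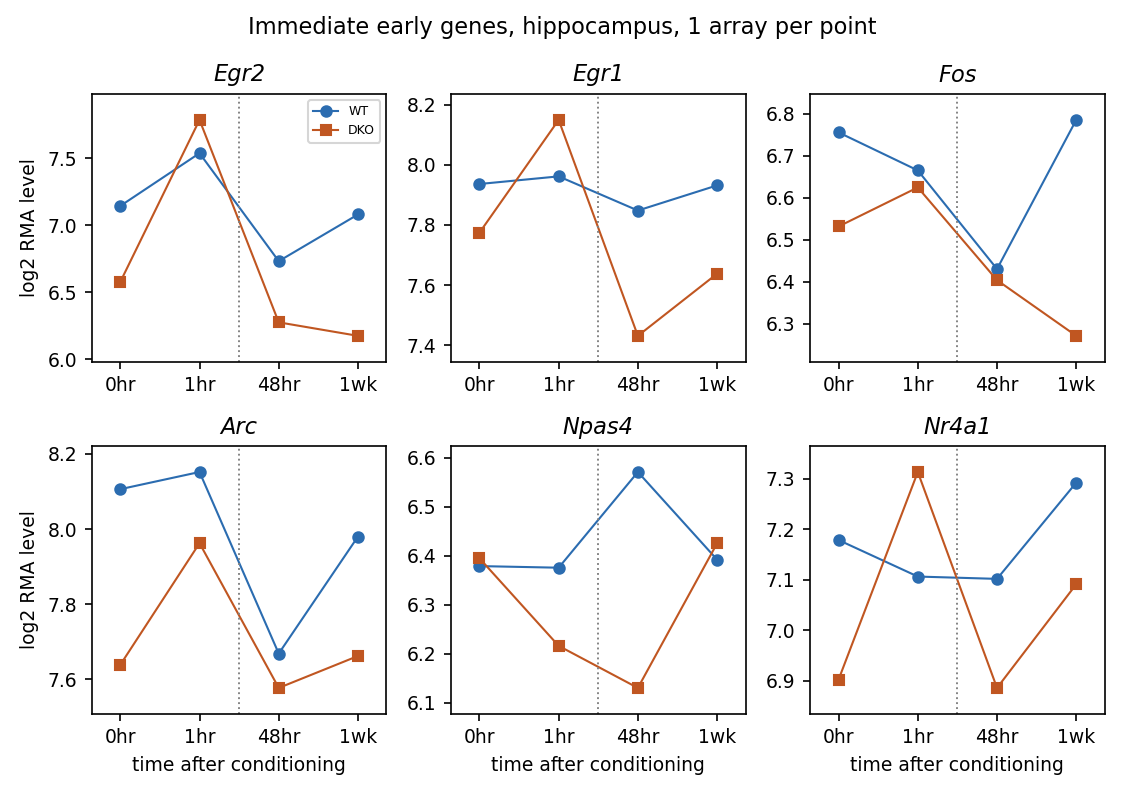
Levels of 6 immediate early genes on the 8 hippocampal arrays, log2 RMA level on the y axis and time after conditioning on the x axis, 1 array per point. Egr2 was highest at 1hr in both genotypes (7.54 in WT, 7.79 in DKO), and all 6 genes overlapped between early and late.

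Genes of the cyclic AMP pathway, in which AC1 and AC8 act, and of synapses gave differences close to that of all genes. In the cyclic AMP pathway 36 genes had a median of -0.03, with 0 calls. The medians were -0.02 for 17 AMPA, kainate and NMDA receptor genes, -0.02 for 21 synaptic vesicle genes and -0.05 for 20 postsynaptic scaffolds. Gria4, an AMPA receptor subunit, was between 8.50 and 8.63 early and between 8.63 and 8.86 late and differed by 0.17 ± 0.07. For 9 GABA-A receptor subunits the median was 0.07, and Gabra3 differed by 0.35 ± 0.12. Thalamic markers had the highest median, 0.13, with Slc17a6, a vesicular glutamate transporter, at 0.35 ± 0.17. Their list mean was 7.29 to 7.61 early and 7.18 to 7.88 late and so overlapped. Astrocyte, microglia and oligodendrocyte lists had medians of -0.05, -0.01 and 0.02.

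**Figure D4:**
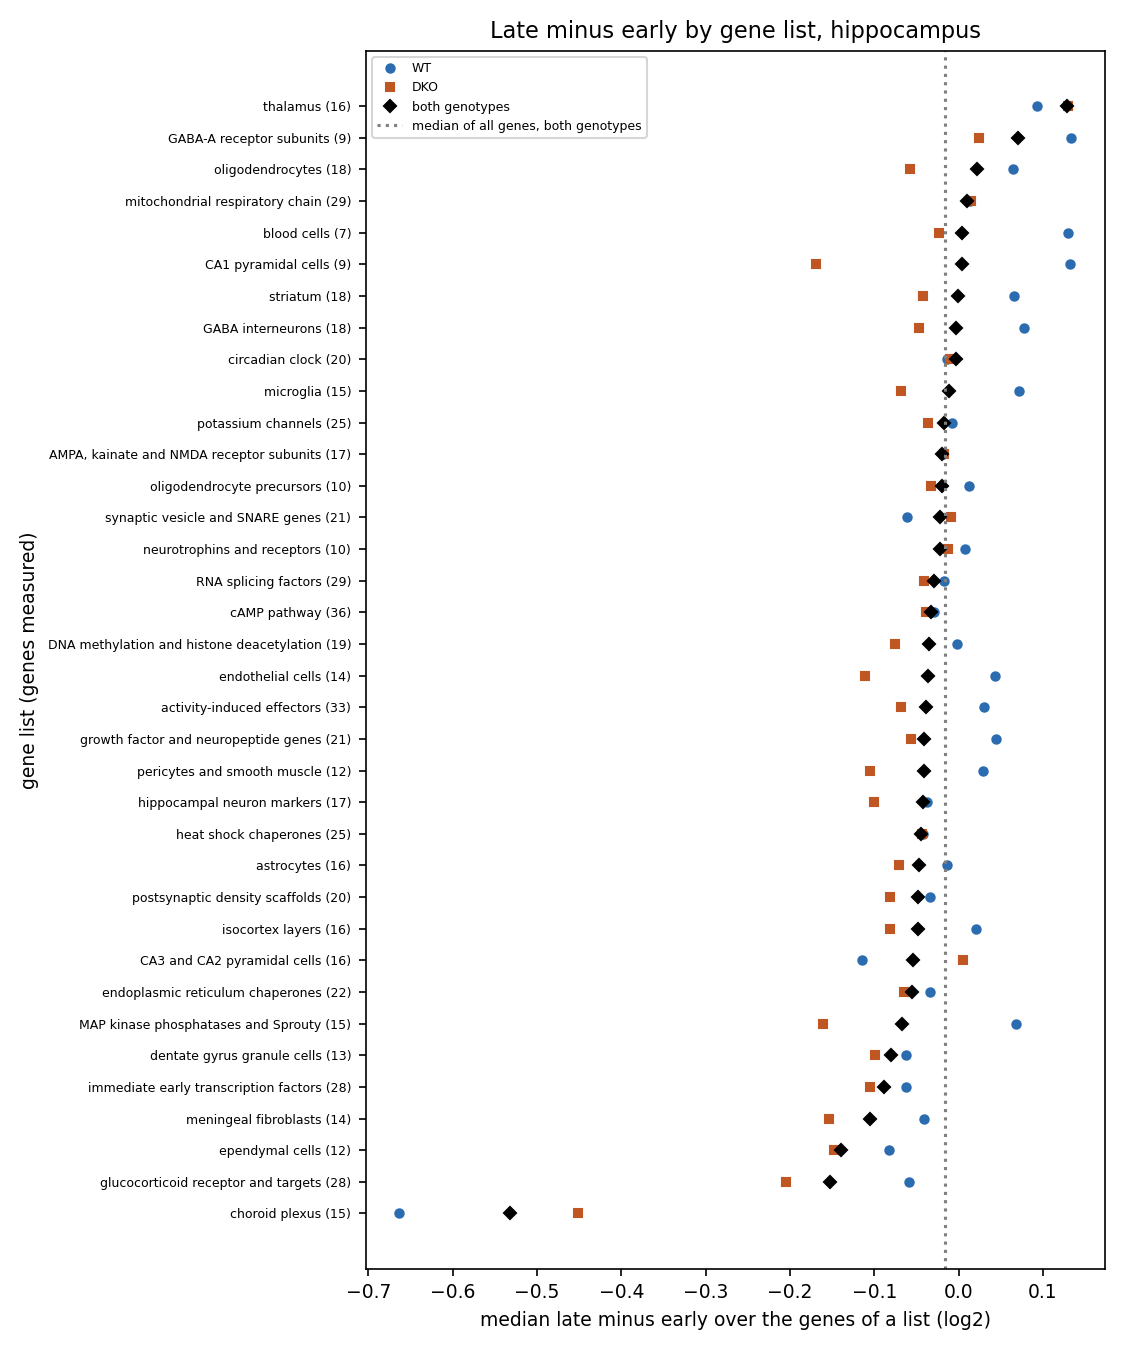
Median late minus early difference over the genes of each list (x axis, log2) by list (y axis, with the number of genes measured), for WT (blue circles), DKO (orange squares) and both genotypes (black diamonds). Choroid plexus (-0.53) stood lowest, followed by the glucocorticoid list (-0.15), and the dotted line at -0.02 is the median of all genes. Each genotype's points rest on 2 early and 2 late arrays.

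The WT and DKO changes were also taken separately, as values without a test. In WT, 20 transcript clusters were at least 1.5-fold lower late (0.0693%) and 2 at least 1.5-fold higher (0.00693%). In DKO, 22 were at least 1.5-fold lower (0.0762%) and 7 at least 1.5-fold higher (0.0243%). The lists shared 7 lower transcript clusters, 35% of the WT list and 31.8% of the DKO list, and no higher ones. Of these 7, the 6 with a symbol were Ttr, Ecrg4, Clic6, Calml4, Kcne2 and Kl, all on the choroid plexus list. Without the DKO 0hr array there were 0 shared lower transcript clusters, and without the DKO 1hr array there were 19. Across all transcript clusters the WT and DKO changes had a Pearson r of 0.095 and the same sign in 49.5%, as a description over transcript clusters that share arrays.

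Some named genes outside the choroid plexus list passed 1.5-fold in 1 genotype and not in the other. Htr2c differed by -0.76 in WT and -0.12 in DKO, and Cldn1, a tight junction protein, by -0.65 and -0.12. In DKO, Egr2 differed by -0.96, and Trdn, which encodes triadin, a protein of calcium release sites, by 0.75 beside 0.16 in WT. The difference between the genotypes was tested, and limma called 0 of 28853 transcript clusters (0%), with 820 at an unadjusted p under 0.05, from 599 without the DKO 1hr array to 1659 without the WT 0hr array. The 5 named genes with the lowest p were Nrm, Cstdc6, Dnah3, Vmn2r54 and Defb8, each with an adjusted p of 1. Nrm, which encodes a protein of the inner nuclear membrane, differed by 0.34 in WT and -0.38 in DKO, and Dnah3, a dynein heavy chain, by -0.30 and 0.34.

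**Figure D5:**
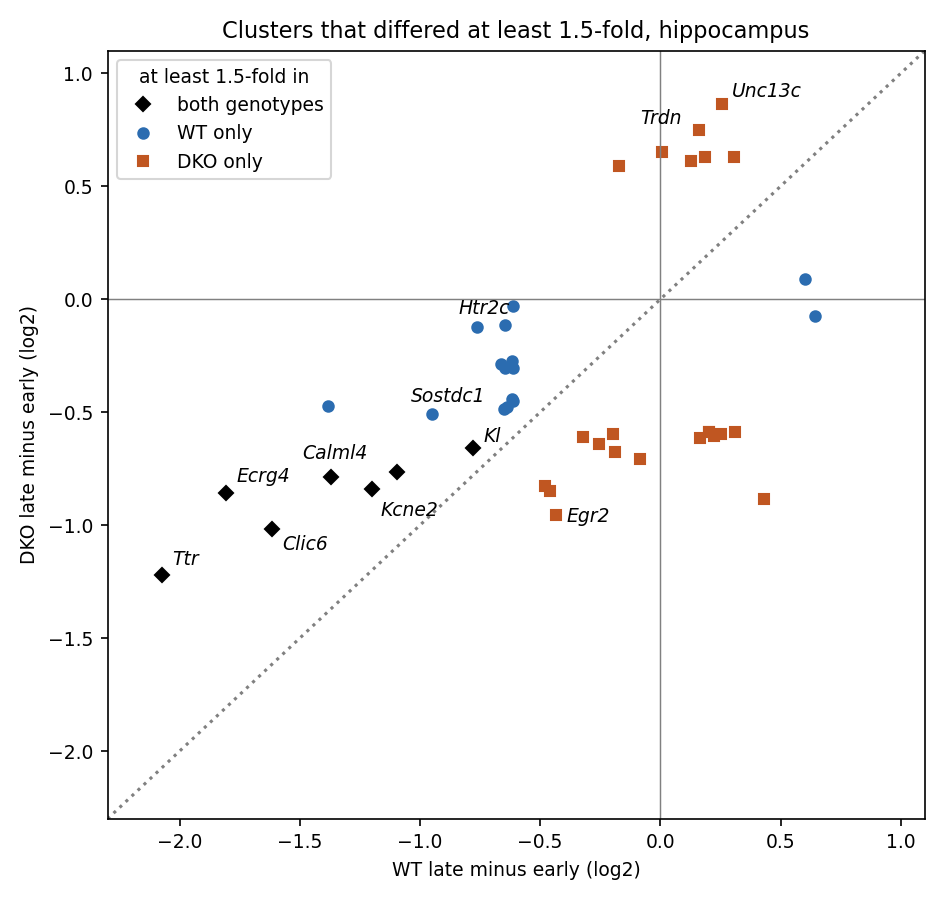
Late minus early difference in WT (x axis, log2) against DKO (y axis, log2) for the transcript clusters that differed at least 1.5-fold in either genotype, with values from 2 late and 2 early arrays each. Black diamonds passed 1.5-fold in both genotypes, blue circles in WT and orange squares in DKO, and the dotted line marks equal differences. The 7 shared ones, all lower late, include Ttr at -2.07 in WT and -1.22 in DKO.

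The amygdala arrays of the same time points were used to ask whether these differences were particular to the hippocampus. Whether both punches came from the same mice is not stated, so these arrays need not be independent of the hippocampal ones. There, limma also called 0 transcript clusters (0%), with 2597 at an unadjusted p under 0.05, from 1528 without its WT 1wk array to 6372 without its DKO 1wk array. The test of the difference between the regions called 0 as well (0%), with 1679 at an unadjusted p under 0.05 and a lowest adjusted p of 0.694. With an array left out this count lay between 1019, without the hippocampal WT 0hr array, and 4199, without the amygdala DKO 1wk array. Txnip differed by -0.35 ± 0.12 in the amygdala, Nfkbia by -0.15 ± 0.09, Sgk1 by -0.20 ± 0.11, Dusp1 by -0.25 ± 0.08 and Egr2 by -0.61 ± 0.15. The median of the glucocorticoid list was -0.14 there, beside -0.15 in the hippocampus, and 2 of its 28 genes separated late below early, beside 3.19% of all transcript clusters. Over all genes with a symbol of their own the amygdala median was -0.02. The glucocorticoid list did not stand out there, as list medians ran from -0.16 for the cyclic AMP pathway to 0.50 for the choroid plexus. Those of synaptic vesicle genes and RNA splicing factors were -0.15 each.

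The choroid plexus list went the other way in the amygdala, with a median of 0.50. For 0 of its 15 genes did the late arrays all lie above the early arrays, beside 1.54% of all transcript clusters. The list mean ran from 6.93 to 8.18 over the amygdala arrays. Ttr differed by 1.30 ± 0.45 there, and the difference between the regions was -2.94 ± 0.83 (SE; limma, adjusted p = 0.806). Drc7 had the lowest p of this test, with -0.56 in the hippocampus and 0.49 in the amygdala (adjusted p = 0.694). Zfp941, Lin28b, Igf2 and Olfr1507 followed with an adjusted p of 0.806 each. Zfp941 differed by 0.39 in the hippocampus and -0.17 in the amygdala, Lin28b by 0.29 and -0.35, Igf2 by -0.44 and 0.33, and Olfr1507, an olfactory receptor gene, by -0.41 and 0.35. Without the DKO 1hr hippocampal array, 1 gene was called between the regions, Sostdc1, a choroid plexus marker, at -1.73 ± 0.23 (adjusted p = 0.0303). The limit given for the calls between late and early without this array holds here too.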

How the data were processed

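Pooled hippocampal RNA was hybridized to Affymetrix Mouse Gene 1.0 ST arrays. The deposited values are log2 RMA values per transcript cluster, made by the authors with RMA in the Affymetrix Expression Console (its version is not given in the sources used here). They were used as deposited. RMA sets the arrays to a common distribution of probe values, so a shift of the whole transcriptome would not show.

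Late and early hippocampal arrays were compared in R 4.3.3 by the moderated linear models of limma 3.58.1, with genotype as covariate and Benjamini-Hochberg adjustment over all 28853 transcript clusters, at an adjusted p of 0.05. The genotype and region differences were interaction terms of the same kind of fit. The number of arrays limits the precision, and since nothing but pooled time points stands as replicates, p-values measure the spread between these arrays. The genotype-specific changes and the gene lists were described without a test.

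Genes were named where a transcript cluster is paired with 1 symbol in the platform annotation (21789 of 28853, 19938 genes). Named were Adcy1 and Adcy8, the 10 calls with the largest change in each direction (topped up with the lowest p), up to 6 called members of each list or up to 4 with the largest change, the 5 lowest p of each interaction, and 11 preset early and hormone-responsive genes. The 8 glucocorticoid genes that separated the groups, the genes called when an array was left out and those beyond 1.5-fold in a genotype were chosen after their values were seen. The comparison, the genes and the lists were chosen with earlier results of these data known. Promoter sequences came from RefSeq, GRCm38.p6.

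Other settings tried were transcript clusters above the median level alone, further quantile normalization, median centring, trended and robust variance, array weights and no moderation. Also tried were a t-test without genotype at 0.1, no genotype or the genotype difference in the model, other limits and single time points. Further settings were both regions in 1 fit and each array left out. Added after the data were seen were the choroid plexus list as covariate and, for the region difference, arrays of the same genotype and time point as pairs. The fits were tested on simulated data. The baseline arrays were not used here. Python 3.11.15 with numpy 2.4.6, pandas 2.3.3 and matplotlib 3.10.9 made counts and plots.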

Additional observations from a re-analysis of the deposited data

Results flagged for a closer look

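Single arrays that stood apart from the other 3 of their group of 4, by the gap to the nearest value relative to the whole range (Dixon's criterion), were found in 6 of 90 groups of named genes and lists tested, where chance gives about 1 in 20. In the early group the WT 1hr array stood apart for Zfp941 at 7.22 (low), Kcnj16 at 6.94 (low) and Txnip at 7.79 (high). The DKO 1hr array stood apart for Ttr at 10.25 and Npas4 at 6.22, both low. In the late group the DKO 48hr array stood apart for Per1 at 6.69 (low). The causes were not tested.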

How the results depend on the processing

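The count of 0 calls between late and early held under 23 of 25 alternatives. Among these, the added 1.5-fold limit reused the main fit and could give no call. The adjusted p limit of 0.1 also reused that fit, whose lowest adjusted p by limma was 0.966. The count became 14 without the DKO 1hr array (early replicate 4) and 6 with 0hr alone as early. Leaving out each array in turn gave 0 to 14. The genotype difference stayed at 0 when any array was left out, and the region difference gave 0 to 1. The median of the glucocorticoid list lay between -0.17 and -0.093 with an array left out. The count of transcript clusters at least 1.5-fold lower in both genotypes lay between 0 and 19. Signs turned for Per1 with 1wk alone as late (0.0006), for Nr4a1 with 1wk alone as late (0.067) or 0hr alone as early (0.052), for Npas4 with 0hr alone as early (-0.0072), and for Junb after quantile normalization (0.0034), centring (0.0078) or with 1hr alone as early (0.11). With arrays left out, Per1 lay between -0.14 and 0.0053, Nr4a1 between -0.097 and 0.067, Npas4 between -0.011 and 0.11, and Junb between -0.082 and 0.086. With the choroid plexus list as covariate Ttr, Ecrg4 and Calml4 turned to 0.43, 0.23 and 0.017, as the covariate is built from them. Other causes were not tested. No paired analysis was possible because the labels give no replicate numbers and both arrays of a time point are late or both early. For the region difference, arrays of the same genotype and time point were taken as pairs, chosen after seeing the data, which gave 0 calls and 3184 transcript clusters at an unadjusted p under 0.05, beside 1679.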
